A study of Saccharomyces cerevisiae with 6 samples.

Results

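The genes described here are 10 members of the unfolded protein response of budding yeast and of the protein-folding machinery of the endoplasmic reticulum (ER). They were listed by systematic name, by a rule that names genes and sets no threshold on values, though earlier results of these data were known when the list was drawn up. They make up 10 of the 6692 gene identifiers in the count files. All 10 passed the filter on low counts, so every member is tested and described below. They are the sensor IRE1 and its messenger target HAC1, the ER Hsp70 KAR2, its exchange factors LHS1 and SIL1, its J-domain partners SCJ1 and JEM1, and the oxidative folding genes PDI1, EUG1 and ERO1.

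RNA was measured in 3 libraries of Rio1-depleted cells and 3 control libraries of Saccharomyces cerevisiae. The depleted cells were MATa W303 yeast with a degron-tagged RIO1-AID gene and PADH1-OsTIR1, in which the ADH1 promoter drives a plant F-box protein, given 500 µM auxin for 1 h, which sends the tagged protein to the proteasome. The controls carried the same genotype, RIO1-AID and PADH1-OsTIR1 included, and had no auxin. Both groups also carry the W303 alleles ade2-1, ura3-1 and trp1-1, together with can1-100, his3-11,15 and a mutant allele of leu2. All cultures grew exponentially at 23 °C in YPD, a rich glucose medium. The titles call the controls wild type, while the strain and source fields give both groups the degron strain. No library had auxin with untagged Rio1, so the effects of auxin and of Rio1 loss cannot be told apart. Nothing in the labels says that the libraries of a group came from separate cultures, so the p-values below speak only of the scatter among these libraries, some of which may be technical.

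Proteins that enter the ER fold there with help from the Hsp70 Kar2, which binds exposed stretches of the chain in a cycle driven by ATP, and from enzymes that form and rearrange disulfide bonds. When unfolded protein builds up, the membrane kinase and nuclease Ire1 cuts an intron out of HAC1 mRNA in the cytoplasm, and the tRNA ligase Trl1 joins the exons. Only the spliced message is translated well, and the Hac1 protein then activates genes of ER folding, ER-associated degradation, lipid synthesis and secretion. Ire1 acts through splicing and not through the amount of HAC1 mRNA alone.

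Gene counts summed to 683896 to 1048376 in the depleted libraries and to 788498 to 1671136 in the control libraries. Before scaling, 1 read was worth 0.598 to 1.46 CPM, CPM being reads of a gene per 1e6 reads counted in all genes of that library. The CPM values of single genes given below are TMM-scaled, so each library total was first multiplied by its TMM factor. These factors were 1.10 to 1.13 in the depleted libraries and 0.887 to 0.908 in the control libraries. RIO1 mRNA stood at 129.7, 112.3 and 93.7 CPM in depleted libraries 1 to 3, against 65.8, 66.3 and 62.9 CPM in control libraries 1 to 3. It cannot check the depletion, because the degron removes the protein and not its message. Depleted library 2 stood apart: the YLR154 reading frames inside the rDNA took 4.12% of its gene counts, against 0.0589% and 0.0765% in the other depleted libraries and 0.169% to 1.48% in the controls. It also had the highest share of its file's entries aligned to more than 1 place, 65.9% against 45.2% to 59.9% in the others. Its chi-square values per degree of freedom were 8.39 and 10.7 with the other depleted libraries, which differed from each other by 3.38. The results without that library are given below where they change a call. Markers of mating type a summed to 1297 to 1599 CPM on library totals in depleted libraries and to 1068 to 1212 CPM in controls. Markers of mating type alpha summed to 49.6 to 57.6 CPM in depleted libraries and to 19.1 to 33.0 CPM in controls, and MF(ALPHA)1, the alpha-factor gene, had 0 reads in every library except control library 2, which had 1. Of the 4 alpha markers, SAG1 held most of the reads. It had 30, 45 and 36 in depleted libraries 1 to 3 and 16, 33 and 20 in control libraries 1 to 3. The raw counts of SAG1, STE3 and MF(ALPHA)2 each overlapped between the groups, but raw counts are not corrected for depth. For SAG1 the overlap was of 30 reads among 683896 gene counts in depleted library 1 with 33 among 1244756 in control library 2. As a share of gene counts, SAG1 was higher in every depleted library than in any control library. Both marker sums were higher in the depleted libraries on library totals, and their part in the results below was not tested.

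The members did not move as a block. The disulfide-forming genes PDI1 and ERO1 rose 1.59-fold and 1.68-fold in Rio1-depleted cells and the J-domain gene SCJ1 rose 1.45-fold, while HAC1, the transcription factor gene of the response, fell 1.54-fold and the exchange factor gene LHS1 fell 1.30-fold. KAR2, the gene most often used to report this response, was close to level (1.06-fold, not called). Among all 5195 tested genes 28.3% were called in either direction. Of the 10 members 3 were called higher, beside 14.1% of all tested genes, and 2 were called lower, beside another 14.1%, by edgeR's quasi-likelihood test at a Benjamini-Hochberg adjusted p under 0.05. The values of the depleted and control libraries did not overlap for 4 members that were higher (beside 20.6% of tested genes) and for 3 that were lower (beside 20.0%). The median log2 fold change of the members was -0.08, against 0.01 over all tested genes. The members together took 0.414%, 0.390% and 0.420% of the gene counts in depleted libraries 1 to 3, against 0.300%, 0.321% and 0.309% in control libraries 1 to 3, a share on library totals that PDI1, HAC1, KAR2 and ERO1 dominate. With TMM scaling the groups lay closer, the members summing to 3673, 3560 and 3741 CPM in depleted libraries 1 to 3, against 3385, 3533 and 3457 CPM in control libraries 1 to 3.

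These directions are relative to TMM scaling, which sets the bulk of genes level between libraries. When libraries were scaled by their totals alone, all tested genes had a median of 0.32 on the log2 scale and each member moved up by about as much. Then 5 members were called higher and 1 lower, beside 1748 higher and 313 lower of all 5195 tested genes. PDI1, ERO1 and SCJ1 were higher and HAC1 was lower under both scalings. With library totals only, the fall of HAC1 was smaller and near the threshold (log2 fold change -0.31, edgeR adjusted p = 0.0436). The fall of LHS1 was not called there (log2 fold change -0.07), and KAR2 and SIL1 were called higher (0.40 and 0.62).

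**Figure D1:**
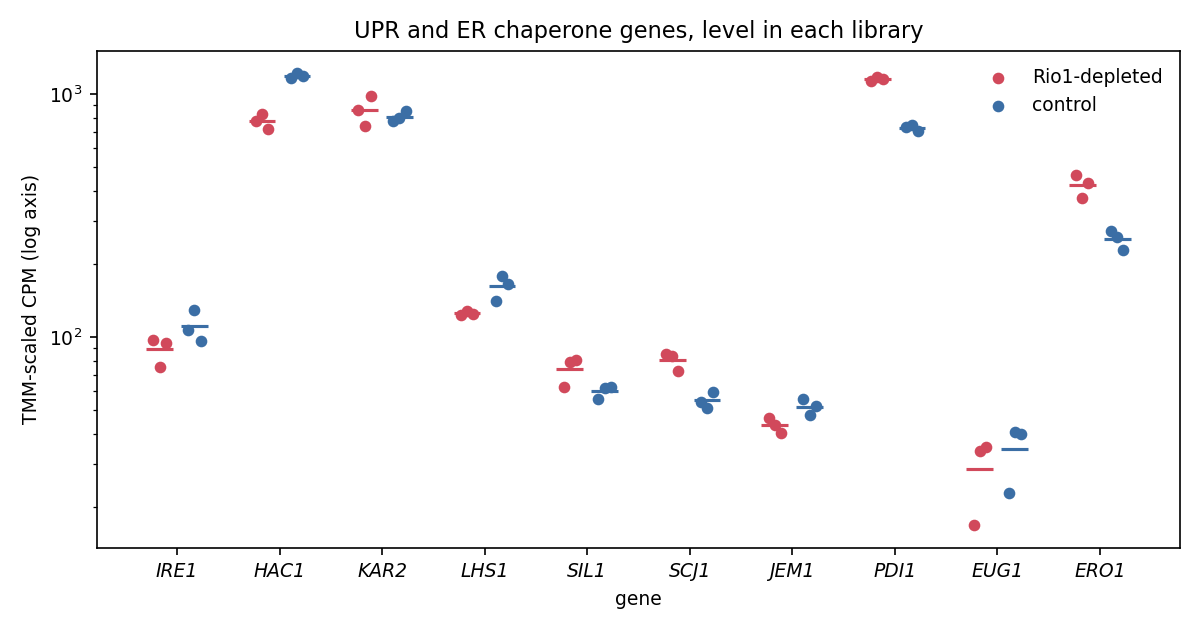
TMM-scaled CPM (log axis) of the 10 genes in each library, with Rio1-depleted libraries left of control libraries; points are libraries and bars are group means (n = 3 each). PDI1, ERO1, SCJ1 and SIL1 lie higher in every depleted library than in any control library, and HAC1, LHS1 and JEM1 lie lower.

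HAC1 (YFL031W, chromosome VI, 75179 to 76147, plus strand, R64) encodes the basic leucine zipper activator of the response. Its annotated exons end at 75839 and begin again at 76092, with an intron of 252 bases between them. The sites at which Ire1 cuts are shown because the splicing they govern is the regulated step that the gene counts do not resolve. Each lies in a loop of 7 bases with the letters CNGNNGN, in capitals below, and the cut falls after the third capital letter, which is the last base of the first exon in one site and of the intron in the other.
HAC1 5′ site, chrVI:75828-75851, plus strand: ggcgtaatcCAGCCGTgattacga
HAC1 3′ site, chrVI:76080-76103, plus strand: ttgtactgtCCGAAGCgcagtcag

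HAC1 mRNA stood at 776, 828 and 719 CPM in depleted libraries 1 to 3, against 1164, 1220 and 1194 CPM in control libraries 1 to 3. The lowest control library lay well above the highest depleted library. The means were 774 ± 54.5 CPM in depleted cells and 1192 ± 27.8 CPM in control cells (SD, n = 3 each), a log2 fold change of -0.62 ± 0.12 (SE) with an edgeR adjusted p of 0.000457. The fall was called in each of the 6 fits that left out 1 library and with DESeq2, limma-voom and RLE scaling. With library totals only it shrank to -0.31 and was called narrowly (edgeR adjusted p = 0.0436). It was not called when tested against a 1.5-fold change (glmTreat adjusted p = 0.869). The counts are one value per gene, so cut, spliced and unspliced HAC1 messages cannot be told apart in them.

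IRE1 (YHR079C, chromosome VIII, 258244 to 261591, minus strand), which encodes the sensor kinase and nuclease, had 97.3, 75.7 and 94.7 CPM in depleted libraries 1 to 3 and 107.3, 130.0 and 96.3 CPM in control libraries 1 to 3. The groups overlapped, at depleted library 1 and control library 3. The log2 fold change was -0.32 ± 0.17 (SE), with a 95% interval of -0.67 to 0.03 and an edgeR adjusted p of 0.163, so it was not called.

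KAR2 (YJL034W, chromosome X, 381327 to 383375, plus strand) encodes the Hsp70 of the ER lumen, the yeast BiP, which binds folding chains and also pulls chains in through the translocation channel. It had 864, 738 and 980 CPM in depleted libraries 1 to 3 and 777, 796 and 855 CPM in control libraries 1 to 3. Depleted library 2 was the lowest of all 6 and depleted library 3 the highest. The log2 fold change was 0.09 ± 0.13 (SE; edgeR adjusted p = 0.652), with a 95% interval of -0.18 to 0.35. A change beyond 1.5-fold in either direction lies outside that interval under TMM scaling. Without depleted library 3 the value was -0.02.

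LHS1 and SIL1 encode factors that exchange the nucleotide of Kar2, Lhs1 being an Hsp70-like protein itself. LHS1 (YKL073W, chromosome XI, 296430 to 299075, plus strand) had 123, 128 and 125 CPM in depleted libraries 1 to 3, against 142, 179 and 167 CPM in control libraries 1 to 3. Every depleted library was below every control library. The log2 fold change was -0.38 ± 0.13 (SE; edgeR adjusted p = 0.0382). The call was lost with DESeq2 (adjusted p = 0.108), with genes of a mean of at least 50 counts only (adjusted p = 0.0529), with library totals only (adjusted p = 0.71) and without any 1 library other than control library 1 (adjusted p up to 0.151).

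SIL1 (YOL031C, chromosome XV, 266264 to 267529, minus strand) had 62.2, 79.2 and 80.9 CPM in depleted libraries 1 to 3 and 55.8, 61.9 and 62.2 CPM in control libraries 1 to 3. The groups did not overlap, but depleted library 1 was level with the highest control library. The log2 fold change was 0.31 ± 0.18 (SE; 95% interval -0.07 to 0.68, edgeR adjusted p = 0.227), which was not called.

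SCJ1 and JEM1 encode J-domain proteins, which stimulate the ATPase of Kar2. SCJ1 (YMR214W, chromosome XIII, 695350 to 696483, plus strand) had 85.6, 83.6 and 73.0 CPM in depleted libraries 1 to 3, against 54.3, 51.3 and 59.5 CPM in control libraries 1 to 3. The groups were well apart. Its log2 fold change was 0.54 ± 0.18 (SE; edgeR adjusted p = 0.028). The call was lost with DESeq2 (adjusted p = 0.0823) and without any 1 library other than depleted library 3 (adjusted p up to 0.118).

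JEM1 (YJL073W, chromosome X, 303181 to 305118, plus strand), whose product also acts in nuclear fusion during mating, had 46.7, 43.5 and 40.4 CPM in depleted libraries 1 to 3 and 55.8, 47.8 and 52.2 CPM in control libraries 1 to 3. The depleted libraries all lay below the controls, but depleted library 1 and control library 2 were less than the worth of 1 read (1.30 CPM in depleted library 1) apart. The log2 fold change was -0.25 ± 0.21 (SE; 95% interval -0.68 to 0.18, edgeR adjusted p = 0.41), which was not called, and it was 0.06 with library totals only.

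PDI1 (YCL043C, chromosome III, 48653 to 50221, minus strand) encodes protein disulfide isomerase, the essential enzyme that forms and reshuffles disulfide bonds in secretory proteins. It had 1135, 1176 and 1161 CPM in depleted libraries 1 to 3, against 732, 749 and 704 CPM in control libraries 1 to 3. Both groups were tight and far apart. The means were 1157 ± 20.9 CPM in depleted cells and 728 ± 22.7 CPM in control cells (SD, n = 3 each), and the log2 fold change was 0.67 ± 0.11 (SE; edgeR adjusted p = 0.000173). The rise was called in every fit except the one against 1.5-fold (glmTreat adjusted p = 0.589).

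ERO1 (YML130C, chromosome XIII, 11483 to 13174, minus strand) encodes the flavoprotein that reoxidises Pdi1 with oxygen as the acceptor. It had 467, 373 and 432 CPM in depleted libraries 1 to 3, against 275, 258 and 228 CPM in control libraries 1 to 3. The lowest depleted library was above the highest control library. The means were 424 ± 47.2 CPM in depleted cells and 254 ± 23.6 CPM in control cells (SD, n = 3 each), with a log2 fold change of 0.75 ± 0.12 (SE; edgeR adjusted p = 6.367e-05). Of all tested genes 90.9% had a lower value. As for PDI1, only the test against 1.5-fold did not call it (glmTreat adjusted p = 0.248).

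EUG1 (YDR518W, chromosome IV, 1478608 to 1480161, plus strand), a non-essential relative of PDI1, was the member with the fewest reads, 13, 39 and 36 in depleted libraries 1 to 3 and 16, 46 and 60 in control libraries 1 to 3. The exact 95% Poisson interval of its 13 reads in depleted library 1 is 6.92 to 22.2, and that of the 60 reads in control library 3 is 45.8 to 77.2 (counting error only). Scaled, it had 16.9, 34.0 and 35.5 CPM in the depleted libraries and 22.9, 40.7 and 40.1 CPM in the control libraries, with library 1 the lowest of each group. Its log2 fold change of -0.28 ± 0.29 (SE; 95% interval -0.89 to 0.34, edgeR adjusted p = 0.528) was not called, and at this depth a change as large as that of PDI1 in the upward direction lies outside the interval while one of the same size downward does not.

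**Figure D2:**
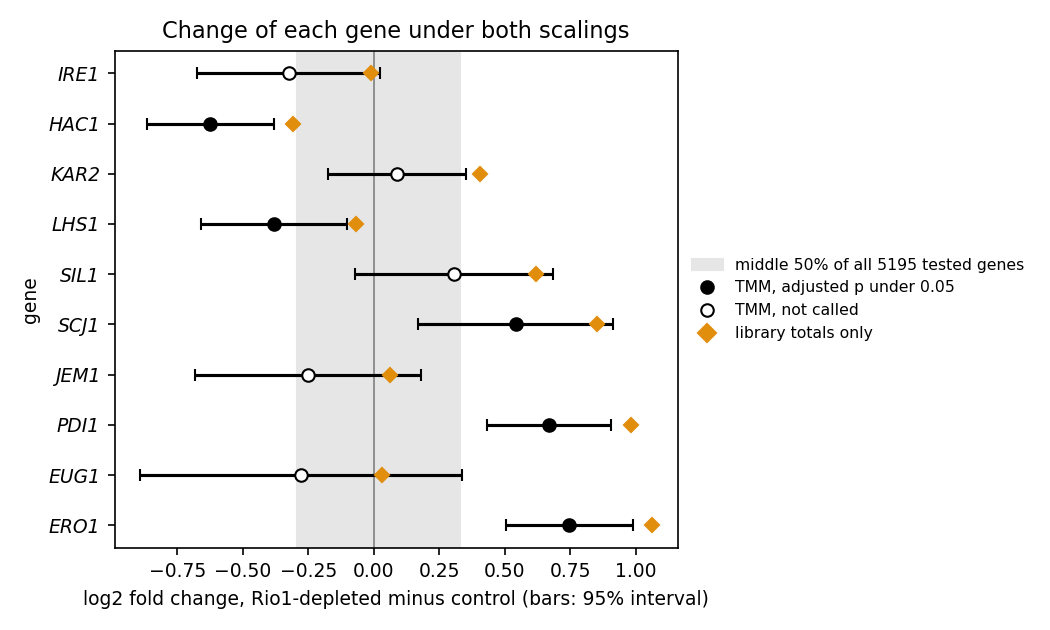
Log2 fold change of each gene, Rio1-depleted minus control, with TMM scaling (circles, bars 95% intervals, filled where the adjusted p was under 0.05) and with library totals only (diamonds); the grey band runs from -0.291 to 0.328 and holds the middle 50% of all 5195 tested genes. PDI1, ERO1 and SCJ1 lie right of the band and HAC1, LHS1 and IRE1 left of it under TMM scaling, and all 10 diamonds lie to the right of their circles.

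Divided by exonic length, the levels of the members spanned a wide range in both groups. HAC1 was divided by its exons without the 252-base intron, and whether intron reads were counted was not stated. The size of its lead over PDI1 below depends on that choice of length. In depleted cells the order in CPM per kb was HAC1 (1080 ± 76.0), PDI1 (738 ± 13.3), KAR2 (420 ± 59.1), ERO1 (251 ± 27.9), SCJ1 (71.2 ± 5.98), SIL1 (58.5 ± 8.14), LHS1 (47.4 ± 0.905), IRE1 (26.6 ± 3.51), JEM1 (22.5 ± 1.61) and EUG1 (18.5 ± 6.66; SD, n = 3 each). In control cells it was HAC1 (1663 ± 38.8), PDI1 (464 ± 14.5), KAR2 (395 ± 19.8), ERO1 (149.9 ± 14.0), LHS1 (61.3 ± 7.14), SCJ1 (48.5 ± 3.66), SIL1 (47.4 ± 2.86), IRE1 (33.2 ± 5.14), JEM1 (26.8 ± 2.07) and EUG1 (22.2 ± 6.51). The libraries of neighbours overlapped for IRE1 with JEM1 and for JEM1 with EUG1 in both groups, and for SCJ1 with SIL1 in the controls only. LHS1, above SCJ1 and SIL1 in every control library, was below both in every depleted library. PDI1 and KAR2 thus had messages several times as abundant as those of the Kar2 cofactors in both groups.

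Ratios between partner genes within a library do not depend on scaling between libraries, and 6 pairs were compared (count + 0.5 for each gene, exact two-sided permutation test over libraries, for which 0.1 is the smallest possible p with 3 libraries against 3). SCJ1 had 1.82, 1.91 and 1.80 reads for each read of JEM1 in depleted libraries 1 to 3, against 0.975, 1.07 and 1.14 in control libraries 1 to 3. The groups did not overlap and the means differed by 0.80 on the log2 scale, a difference that did not pass the test (exact permutation p = 0.1, adjusted 0.15 over the 6 pairs). SIL1 had 0.508, 0.620 and 0.647 reads for each LHS1 read in the depleted libraries, against 0.397, 0.348 and 0.375 in the control libraries, a difference of 0.66 on the log2 scale (exact permutation p = 0.1, adjusted 0.15).

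LHS1 had 0.143, 0.174 and 0.128 reads for each KAR2 read in depleted libraries 1 to 3 and 0.183, 0.225 and 0.195 in control libraries 1 to 3, a log2 difference of -0.44. EUG1 had 0.0154, 0.0292 and 0.0310 reads for each PDI1 read in the depleted libraries and 0.0322, 0.0549 and 0.0574 in the control libraries, a log2 difference of -0.95 that rests on the low EUG1 counts. Neither pair overlapped between groups, and both had an exact permutation p of 0.1 (adjusted 0.15). ERO1 had 0.412, 0.318 and 0.372 reads for each PDI1 read in the depleted libraries and 0.376, 0.345 and 0.324 in the control libraries, so this ratio overlapped and differed by 0.07 on the log2 scale (exact permutation p = 0.7, adjusted 0.7). The HAC1 to IRE1 ratio overlapped too, at 7.93, 10.9 and 7.56 in the depleted libraries and 10.8, 9.35 and 12.4 in the control libraries (log2 difference -0.31, exact permutation p = 0.3, adjusted 0.36).

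**Figure D3:**
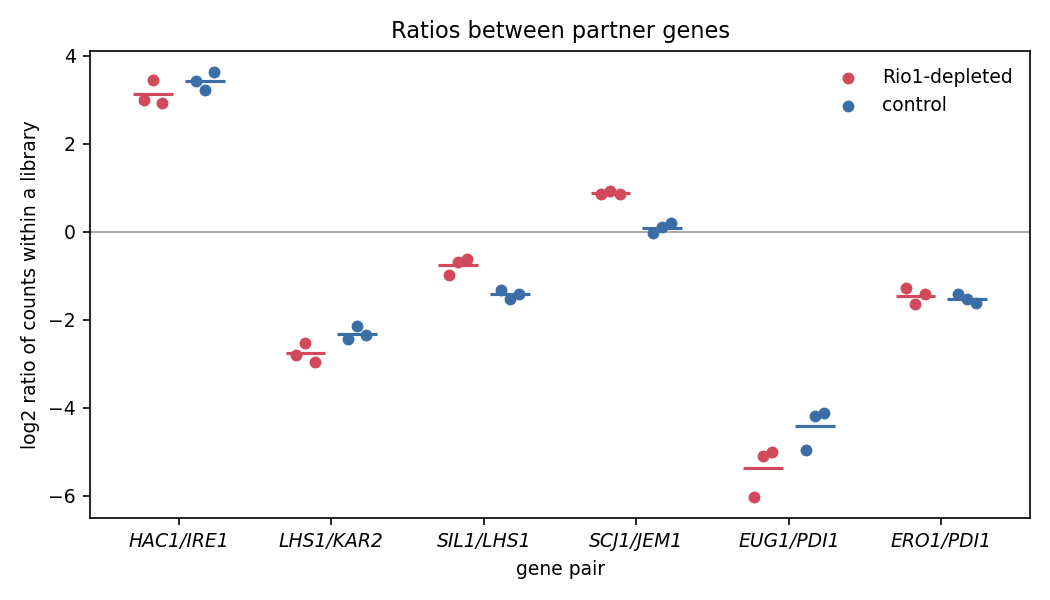
Log2 ratio of the counts of partner genes within each library, with Rio1-depleted libraries left of control libraries; points are libraries and bars are group means (n = 3 each). The groups do not overlap for LHS1/KAR2, SIL1/LHS1, SCJ1/JEM1 and EUG1/PDI1, and overlap for HAC1/IRE1 and ERO1/PDI1.

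The upstream regions of the members were read because Hac1 is known to bind an unfolded protein response element, and because KAR2 is also known as a target of the heat shock factor Hsf1. In the 500 bases before the annotated start codon, the UPRE core CAGCGTG, searched on both strands, was found for KAR2 and LHS1, 2 of the 10 members, and in 2.32% of the windows of 6000 protein-coding genes. With a free middle base, as CAGNGTG, which includes the first motif, the same 2 members had a match, against 10.2% of windows. The core TACGTG of a further Hac1-bound element was found for SIL1, EUG1 and ERO1, against 13.1% of windows. The heat shock letters TTCNNGAA, which read alike on both strands, were found for KAR2 and SCJ1 (21.2% of windows), and GAANNTTC, which can overlap them, for HAC1 and KAR2 (19.2%). The stretches below are R64 sequence on the strand of the gene, with the matched letters in capitals and are shown so that the matches can be set beside the directions. In KAR2 the first capitals are 3 overlapping heat shock matches and the second the UPRE core.
KAR2, chrX:381111-381184, plus strand: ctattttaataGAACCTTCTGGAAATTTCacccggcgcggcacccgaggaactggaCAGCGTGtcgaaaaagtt
LHS1, chrXI:296320-296348, plus strand: ataatatcgaaCACGCTGttataaaagtg
ERO1, chrXIII:13297-13324, minus strand: acgatacggagTACGTGtcataaaaact
SIL1, chrXV:267615-267642, minus strand: tgtgaaaaggcCACGTAaatgatagagc
EUG1, chrIV:1478423-1478450, plus strand: tcccttcaaaaCACGTAaacgatagttg
SCJ1, chrXIII:694895-694924, plus strand: aactgaggttcTTCTGGAAtcgatccaatc

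The matches began 160 bases before the start codon in KAR2 (UPRE core), 99 in LHS1, 139 in ERO1, 102 in SIL1 and 174 in EUG1, while the SCJ1 match lay 444 bases away. The GAANNTTC match of HAC1, whose stretch is not printed above, began 166 bases before its start codon. With TMM scaling, the members with the UPRE core were LHS1, which was called lower, and KAR2, which was not called. Of those with TACGTG, ERO1 was called higher and SIL1 and EUG1 were not called. With library totals only, LHS1 was not called, and KAR2 and SIL1 were called higher. Of the members with heat shock letters, SCJ1 was called higher, HAC1 was called lower and KAR2 was not called with TMM scaling. DESeq2 called neither LHS1 nor SCJ1. PDI1, IRE1 and JEM1 had none of these letters in their windows. A match of letters is not a bound site, and its absence says only that these letters are not in this window.

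Around the members, 10 lists of ER genes held 106 other genes, of which 105 were tested. Of these 23 were lower and 4 higher, with a median log2 fold change of -0.18, beside 14.1% of all tested genes in each direction and a median of 0.01. Scaling by totals alone gave 4 lower and 19 higher and a median of 0.14, against 0.32 for all tested genes. Of all 5195 tested genes, that scaling called 313 lower and 1748 higher. The counts with library totals only in the lists below are to be read beside those numbers. Where a list below had none called in a direction, edgeR at an unadjusted p under 0.05 gave 0 higher for the COPII and translocation lists, 1 higher for O-mannosylation and for glycan trimming, 2 higher for the oxidoreductases and 0 lower for ER-associated degradation. DESeq2 and limma-voom called 0 in each of those directions.

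Of 18 genes for the COPII coat and cargo receptors, which carry folded proteins out of the ER, 8 were lower and none higher (median -0.32). Scaling by totals alone left 3 lower and made 2 higher (median -0.01). ERV25 and EMP24, subunits of the p24 cargo receptor complex, had log2 fold changes of -1.03 ± 0.12 and -0.72 ± 0.13 (SE), and SAR1, the GTPase that starts coat assembly, had -0.78 ± 0.11, with edgeR adjusted p-values of 1.338e-06, 0.00043 and 1.378e-05. ERV25 averaged 180 ± 17.3 CPM in depleted cells and 367 ± 40.0 CPM in control cells (SD, n = 3 each).

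Of 12 genes for O-mannosylation and GPI anchors, 4 were lower and none higher (median -0.33; 0 lower and 1 higher with library totals only). The protein O-mannosyltransferase genes PMT1 and PMT4 had log2 fold changes of -0.58 and -0.52, and the GPI transamidase gene GPI17 had -0.59. Of 13 inositol and phospholipid genes 4 were lower and 1 higher (median -0.35; 1 lower and 2 higher with library totals only), among them the inositol permease gene ITR1 (-0.74), the phosphatidylethanolamine methyltransferase gene CHO2 (-0.51) and the choline kinase gene CKI1 (0.52). Of 13 translocation and signal peptidase genes 3 were lower and none higher (median -0.26; 0 lower and 1 higher with library totals only), namely SBH2 (-0.61), SSS1 (-0.43) and SEC61 (-0.40), which encode channel subunits.

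Among 11 genes of ER-associated degradation, which returns misfolded proteins to the proteasome, 2 were higher and none lower (median 0.13; 5 higher with library totals only). These were USA1, a scaffold of the Hrd1 ligase (0.49), and SSM4, the gene of the Doa10 ligase (0.43). Among 6 genes that act on HAC1 mRNA or on Ire1, the protein kinase gene KIN1 was higher (0.46) and PTC2, a phosphatase that acts on Ire1, was lower (-0.47), and with library totals only 3 were higher and none lower. Of 8 genes for glycan trimming, HTM1 (MNL1 in R64), an ER mannosidase gene, and CWH41, glucosidase I, were lower (-0.64 and -0.61), whereas scaling by totals alone gave 2 higher and 0 lower in this list. Among 8 further oxidoreductases and prolyl isomerases the 1 lower gene was EPS1, a Pdi1 relative of the ER membrane (-0.57), and none was higher, against 2 higher and none lower with library totals only. None of the 8 tested oligosaccharyltransferase genes of 9 and none of 8 signal recognition particle genes was called by edgeR with TMM scaling (1 and 0 were higher with library totals only; at an unadjusted p under 0.05, 1 and 2 were lower and 0 higher; DESeq2 called 0 in both lists and limma-voom 0 and 1), the most abundant being STT3 (-0.28, adjusted p = 0.0579) and SRP68 (0.02, adjusted p = 0.937).

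**Figure D4:**
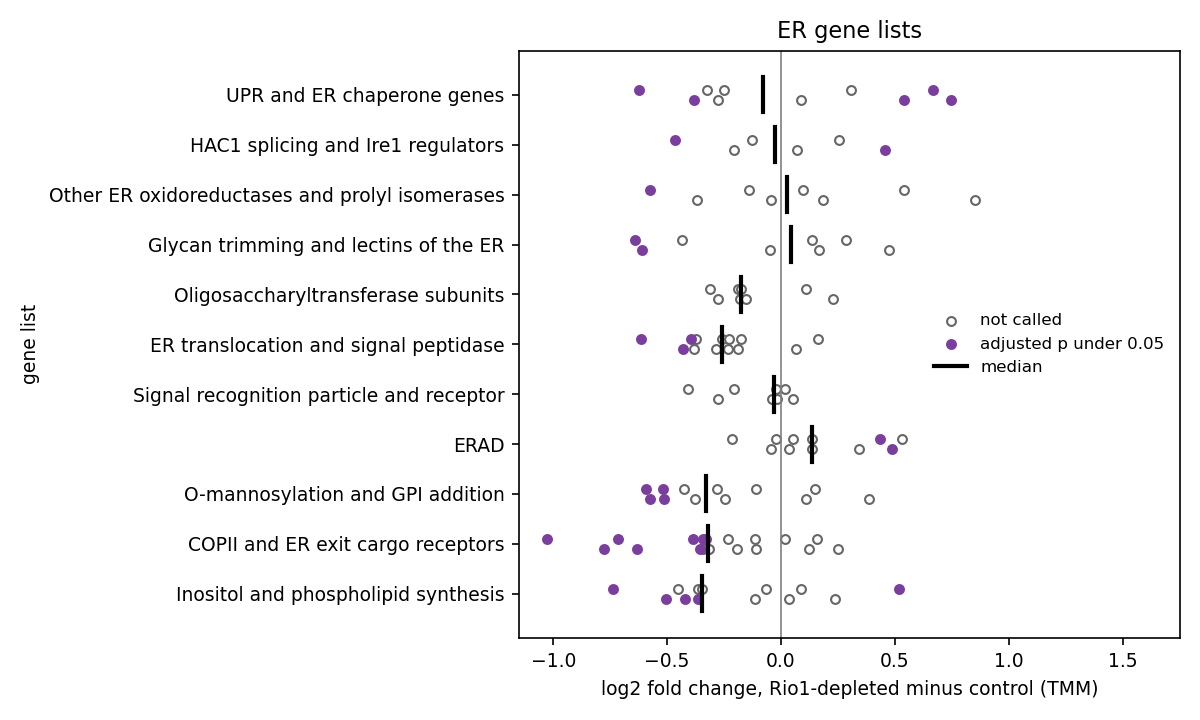
Log2 fold change with TMM scaling, Rio1-depleted minus control, of the 10 described genes (top row) and of the tested genes in 10 lists of related ER functions; filled points had an adjusted p under 0.05 and black bars are list medians. The filled points of the COPII list run from -1.03 to -0.33, and the top row has filled points on both sides of 0.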

How the data were processed

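Total RNA for 6 yeast libraries was isolated by hot phenol extraction, cleared of rRNA with Ribo-Zero Gold and turned into ScriptSeq v2 libraries, per the labels' protocols. The deposited files hold raw counts of reads per gene with 5 HTSeq summary rows, which were left out of library sizes. TopHat2 2.0.8, HTSeq and DESeq with build sacCer3 are named, per the submitters' processing notes. No settings, strand option or annotation were stated (not given in the sources used here). Reads that aligned to more than 1 place (45.2% to 65.9% of a file's entries), outside genes (11.0% to 17.9%) or to overlapping genes (0.813% to 1.46%) are not in the gene counts. Names, coordinates and sequence come from RefSeq assembly R64, the assembly known as sacCer3, which holds 6008 of the 6692 identifiers. No member overlaps another R64 gene; overlap with the other 684 identifiers was not checked.

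The test was edgeR's (version 4.0.16, R 4.3.3; TMM, filterByExpr with minimum count 10 and minimum total 15, glmQLFit and glmQLFTest on 2 groups), adjusted by Benjamini-Hochberg over all 5195 tested genes. Each SE is the size of the log2 fold change over the square root of the F statistic. The alternatives included DESeq2 1.42.0 and limma 3.58.1. The code was tested on simulated data. The members and lists were chosen with earlier results of these data known. Named outside the members are up to 3 called genes per list with the largest change, or the most abundant gene where none was called. No pair of libraries was identical, and libraries of a group differed by more than sampling noise (chi-square 2.53 to 10.7 per degree of freedom).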

Additional observations from a re-analysis of the deposited data

How the results depend on the processing

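HAC1, PDI1 and ERO1 kept their calls under every alternative run except the test against a 1.5-fold change, in which 0 members were called higher and 0 lower, 0 and 1 pathway genes, and 204 and 190 of all genes (glmTreat; at an unadjusted p under 0.05, 1 member was higher and 0 lower). With library totals only, 5 members were higher and 1 lower, 19 and 4 pathway genes, and 1748 and 313 of all genes, and JEM1 and EUG1 turned to 0.0623 and 0.0323. LHS1 was not called with DESeq2 or among genes averaging at least 50 counts, which left 1 member lower in each. When 1 library was left out, 2 to 3 members were higher and 1 to 2 lower, 2 to 6 pathway genes were higher and 17 to 25 lower, 529 to 671 of all genes were higher and 591 to 699 lower, and KAR2 ran from -0.0203 (without depleted library 3) to 0.185. The cause of these differences was not tested. The leave-one-out log2 differences of the partner ratios ran from -0.48 to -0.21 for HAC1/IRE1, -0.56 to -0.34 for LHS1/KAR2, 0.59 to 0.77 for SIL1/LHS1, 0.74 to 0.85 for SCJ1/JEM1, -1.22 to -0.63 for EUG1/PDI1 and -0.0152 to 0.172 for ERO1/PDI1, the last turning without depleted library 1. Deviations from the group means had correlations of -0.06, -0.00079 and 0.08 between same-numbered libraries, against -0.08 to 0.07 between differently numbered ones. No strong shared deviation was seen. Deviations from a mean of 3 libraries balance to 0, so these values cannot show whether libraries were prepared in pairs. With the replicate block, 3 members were higher and 2 lower, and 741 and 756 of all genes. Without the YLR154 rows, with RLE, with no count filter and with limma-voom, 3 members were higher and 2 lower. Of 148 member values under alternatives, 124 kept their direction and side of the threshold. Read depth limits EUG1 most.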

Other observations

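Of the genes of the ER lists, 4 more were named after their values were seen. MPD1, a further Pdi1 relative, averaged 18.1 ± 2.55 CPM in depleted cells and 9.64 ± 3.27 CPM in control cells (SD, n = 3 each; log2 fold change 0.85, edgeR adjusted p = 0.0886). HRD1, the ubiquitin ligase of the ER lumen pathway, averaged 74.0 ± 7.85 CPM in depleted cells and 52.0 ± 11.5 CPM in control cells (log2 fold change 0.53, edgeR adjusted p = 0.0581). INO1, which encodes inositol phosphate synthase, averaged 78.5 ± 6.72 CPM in depleted cells and 82.9 ± 4.92 CPM in control cells (log2 fold change -0.06, edgeR adjusted p = 0.806). TRL1, the tRNA ligase that joins the exons of HAC1, averaged 112.9 ± 4.00 CPM in depleted cells and 106.4 ± 9.37 CPM in control cells (log2 fold change 0.07, edgeR adjusted p = 0.759).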
